A study of Mus musculus with 36 samples.

Results

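Transcripts of 10 core circadian clock genes (Arntl, Npas2, Dbp, Per1, Per2, Per3, Cry1, Cry2, Nr1d1 and Nr1d2) were measured in 36 mouse livers by RNA sequencing. They are the rows of the count table that carry these gene symbols, 10 of 32544 symbols, and all 10 passed the filter on low counts that left 15338 genes for testing. The clock of a liver cell is a feedback loop in which a pair of activating transcription factors, ARNTL (also called BMAL1) with CLOCK or its relative NPAS2, switches on the genes of its own repressors, the period (PER) and cryptochrome (CRY) proteins. The same activators drive the nuclear receptors NR1D1 and NR1D2 (REV-ERB alpha and beta), which in turn repress Arntl and Npas2, and they drive DBP, a factor that passes the rhythm on to many liver genes. As a result Arntl and Dbp transcripts cycle out of step in mouse liver, so that their balance depends on the hour at which a liver is taken.

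All mice were male C57BL/6N and 8 to 10 weeks old when treatment began. Carbon tetrachloride (CCl4), a solvent that damages hepatocytes and brings on liver fibrosis, was given intraperitoneally at 1 g/kg in olive oil, with 2 injections a week, and oil alone served as vehicle. The 6 groups of 6 mice were a month 0 control, month 2 CCl4, month 2 oil, month 6 CCl4, month 12 CCl4 and month 12 oil, so month 6 has no oil group of its own here. The titles of the month 0 mice read control, whereas their treatment label reads olive oil. Livers were taken 6 days after injections ended. The labels do not give the hour of collection or the lighting schedule, so time of day and group cannot be told apart in any comparison that follows. Months of oil, age and time of day likewise cannot be told apart between the oil groups and month 0.

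The libraries held 19403247 to 28917545 counts, and a level in CPM is a count divided by its library's total after trimmed-mean (TMM) scaling, so that levels compare between livers and not between genes. The 36 livers held between 23 and 666 counts of Arntl, between 15 and 2964 counts of Dbp and between 293 and 5106 counts of Nr1d2. Npas2 was the member with the fewest counts, down to 3 in 1 liver of the month 6 CCl4 group. There the exact 95% binomial interval ran from 0.0255 to 0.361 CPM before TMM scaling and covers counting error only. Hepatocyte markers dominated in every liver, with a summed level of 5 markers between 50678 and 103802 CPM. In whole liver, fewer cells of a type and less RNA per cell cannot be told apart. Nothing in the labels says which mice shared a cage or a day, so the p-values measure the spread between these mice.

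The promoters of the clock genes are where the loop closes, and 9 of the 10 members had a RefSeq promoter window (GRCm38.p6), 11 windows in all, Per2 being the member without one. The 250 bases before each start were searched on both strands for the letters CACGTG (the E-box, through which ARNTL and CLOCK act), TTATGTAA (a D-box, the kind of site that DBP binds) and AGGTCA (the letters contacted by NR1D1, NR1D2 and other nuclear receptors). The E-box letters stood in a window of 2 members and in 6.02% of 32851 promoter windows of the same length. The D-box letters stood in 1 member and in 0.819% of windows, and AGGTCA stood in 2 members and in 14.02% of windows. The 4 windows that hold a match follow, shown because they carry the motifs of the 3 arms of the loop, each written from 5′ to 3′ on the gene's strand with the motif in capitals. The windows lie at chr11:69098699-69098948 (plus strand) for Per1, chr4:151044666-151044915 (minus strand) for Per3, chr10:85185055-85185304 (minus strand) for Cry1 and chr14:18239107-18239356 (minus strand) for Nr1d2.
Per1: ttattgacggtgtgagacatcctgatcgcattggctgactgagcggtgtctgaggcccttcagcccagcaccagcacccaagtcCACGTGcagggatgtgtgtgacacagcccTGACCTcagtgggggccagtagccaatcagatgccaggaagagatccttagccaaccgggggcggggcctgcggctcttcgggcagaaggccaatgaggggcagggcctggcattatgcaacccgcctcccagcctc
Per3: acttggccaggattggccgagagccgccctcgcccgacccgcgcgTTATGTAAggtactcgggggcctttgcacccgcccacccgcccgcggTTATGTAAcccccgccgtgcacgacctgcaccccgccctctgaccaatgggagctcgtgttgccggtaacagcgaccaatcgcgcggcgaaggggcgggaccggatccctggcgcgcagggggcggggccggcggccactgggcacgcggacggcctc
Cry1: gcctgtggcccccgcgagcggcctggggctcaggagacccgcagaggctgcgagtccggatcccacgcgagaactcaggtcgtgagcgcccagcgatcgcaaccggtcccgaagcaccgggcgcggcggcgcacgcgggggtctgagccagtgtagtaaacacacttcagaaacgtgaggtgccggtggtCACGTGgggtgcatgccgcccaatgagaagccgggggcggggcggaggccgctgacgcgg
Nr1d2: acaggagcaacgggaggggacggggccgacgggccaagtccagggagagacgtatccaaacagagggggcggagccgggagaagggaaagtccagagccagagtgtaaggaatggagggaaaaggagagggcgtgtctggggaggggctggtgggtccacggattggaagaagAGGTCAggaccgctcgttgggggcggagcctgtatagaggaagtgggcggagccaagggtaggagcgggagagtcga
The E-box of Per1 began 166 bases before the start and an AGGTCA motif, read on the opposite strand, began 137 bases before it. The Per3 window held 2 D-boxes, at 205 and 158 bases before the start. The Cry1 E-box lay 60 bases and the Nr1d2 AGGTCA 77 bases before their starts. No match of 1 motif overlapped a match of another. A match describes letters in the sequence and does not show that a factor was bound, and a window without these letters says nothing about the factor.

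By the SD of log2(CPM + 1), Arntl and Dbp were the members that varied most among mice of the same group. Arntl (chr7:113207465-113314126 of mm10, plus strand) encodes the activator that the liver clock cannot run without. Its level had a lowest, median and highest value of 5.83, 20.3 and 23.9 CPM in month 0 livers, and of 0.919, 1.57 and 14.3 CPM in month 2 CCl4 livers. It was 1.23, 2.46 and 5.93 CPM in month 2 oil livers and 1.67, 7.58 and 22.5 CPM in month 6 CCl4 livers. It was 4.69, 10.3 and 14.2 CPM in month 12 CCl4 livers, against 2.75, 20.9 and 27.7 CPM in month 12 oil livers. Both month 2 groups were thus low apart from the CCl4 liver at 14.3 CPM. Month 0 and month 12 oil were high by median, although the lowest month 0 liver lay below the highest month 2 oil liver and 1 month 12 oil liver lay within the month 2 oil range. Month 6 spanned nearly the whole range. By median the order was month 12 oil, month 0, month 12 CCl4, month 6 CCl4, month 2 oil and month 2 CCl4, and each neighbouring pair in that order overlapped.

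Dbp (chr7:45705088-45710203, plus strand) encodes the output factor that rises when the activators are at work. Its lowest, median and highest levels were 0.725, 4.32 and 21.4 CPM in month 0 livers, and 29.7, 88.9 and 108 CPM in month 2 CCl4 livers. They were 50.8, 65.9 and 80.9 CPM in month 2 oil livers and 1.95, 63.9 and 106 CPM in month 6 CCl4 livers. They were 3.19, 19.8 and 42.6 CPM in month 12 CCl4 livers, against 2.39, 7.45 and 55.8 CPM in month 12 oil livers. The groups with low Arntl were therefore the ones with high Dbp, and the month 2 groups did not overlap month 0. Exons of Dbp share 539 of 2993 bases with the opposite-strand gene Sphk2, and exons of Nr1d1 share 263 of 3077 bases with Thra. Whether the counting used strand is not stated in the sources, so reads in those stretches may belong to either gene.

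The balance of this pair was taken as the difference of log2(CPM + 1) between Arntl and Dbp in each liver, a description only, since its zero depends on transcript lengths. Its lowest, median and highest values were -1.71, 1.99 and 3.85 in month 0 livers, -5.70, -5.20 and -0.998 in month 2 CCl4 livers and -5.20, -4.27 and -2.90 in month 2 oil livers. In month 12 CCl4 livers they were -2.74, -0.81 and 1.84, against -3.92, 1.52 and 2.98 in month 12 oil livers. None of the 12 month 2 livers was above 0, whereas 2 of 6 month 12 CCl4 livers, 4 of 6 month 12 oil livers and 4 of 6 month 0 livers were. The 6 livers of the month 6 CCl4 group differed most among themselves, with single values of 2.17, 2.96, -1.38, -5.33, -5.08 and -5.09. The first pair of those livers held 22.5 and 21.98 CPM of Arntl with 4.23 and 1.95 CPM of Dbp, and the last 3 held 1.67 to 1.93 CPM of Arntl with 91.7 to 106 CPM of Dbp. Mice of 1 treatment and month thus held the range otherwise seen between groups.

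**Figure D1:**
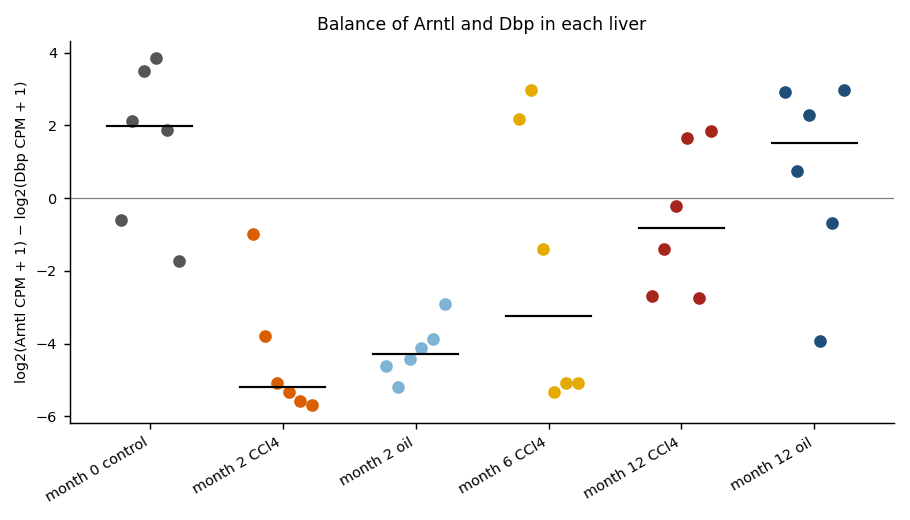
Difference of log2(CPM + 1) between Arntl and Dbp (vertical axis) in each liver of the 6 groups (horizontal axis), with 1 point per mouse and a bar at the group median. All 12 month 2 livers lie below 0, and the month 6 CCl4 livers spread from -5.33 to 2.96.

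Npas2 (chr1:39193731-39363236, plus strand), whose product can stand in for CLOCK, followed Arntl at a low level. Its medians were 1.48 CPM at month 0, 0.274 CPM in month 2 CCl4 livers, 0.356 CPM in month 2 oil livers, 0.688 CPM in month 6 CCl4 livers, 1.90 CPM in month 12 CCl4 livers and 1.57 CPM in month 12 oil livers. The ranges of all 6 groups overlapped.

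The period genes followed Dbp to different degrees. Per3 (chr4:151003652-151044665, minus strand), whose product is the least needed of the 3 period proteins for the rhythm itself, was closest to it. Its lowest, median and highest levels were 2.13, 5.94 and 15.2 CPM in month 0 livers, 8.63, 42.0 and 49.9 CPM in month 2 CCl4 livers and 14.7, 25.1 and 31.2 CPM in month 2 oil livers. They were 3.60, 23.9 and 38.9 CPM in month 6 CCl4 livers, then 3.01, 8.23 and 14.4 CPM in month 12 CCl4 livers, against 1.96, 4.07 and 19.4 CPM in month 12 oil livers. As with Dbp, month 2 was high and month 0 and month 12 were mostly low. Per2 (chr1:91415982-91459324, minus strand), a main repressor of the loop, departed from this pattern at month 0. Its lowest, median and highest levels were 9.37, 14.9 and 26.9 CPM in month 0 livers, 7.50, 25.2 and 28.8 CPM in month 2 CCl4 livers and 11.2, 16.02 and 24.7 CPM in month 2 oil livers. They were 6.01, 13.8 and 21.6 CPM in month 6 CCl4 livers, then 5.67, 9.70 and 14.5 CPM in month 12 CCl4 livers, against 4.81, 8.13 and 10.5 CPM in month 12 oil livers. Month 2 oil and month 0 livers overlapped widely in Per2 although their Arntl and Dbp stood far apart. Per1 (chr11:69095217-69109960, plus strand), a period gene that glucocorticoids can also switch on directly, had medians of 7.52 CPM at month 0, 15.3 CPM in month 2 CCl4 livers, 13.3 CPM in month 2 oil livers, 10.2 CPM in month 6 CCl4 livers, 13.9 CPM in month 12 CCl4 livers and 4.81 CPM in month 12 oil livers. Month 12 oil had the lowest Per1 median of the 6 groups and the highest Arntl median.

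The cryptochrome genes moved over narrower ranges. Cry1 (chr10:85131700-85185064, minus strand), whose protein is the strongest repressor of ARNTL with CLOCK, ranged from 2.63 to 15.3 CPM over the 36 livers, with a highest group median of 9.09 CPM at month 0 and a lowest of 4.35 CPM in month 2 oil livers. Cry2 (chr2:92403646-92434043, minus strand) ranged from 9.90 to 29.5 CPM, with a highest group median of 24.3 CPM in month 2 CCl4 livers and a lowest of 13.3 CPM at month 0. Cry1 did not follow the order of the Arntl medians: month 2 CCl4 livers, with the lowest Arntl median, had a Cry1 median of 5.76 CPM, above the 4.49 CPM of month 12 CCl4 livers. The 3 groups with the highest Dbp medians (both month 2 groups and month 6 CCl4) were also those with the highest Cry2 medians.

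Nr1d1 and Nr1d2, the receptors that repress Arntl, did not share 1 pattern. Nr1d1 (chr11:98767932-98775333, minus strand) had lowest, median and highest levels of 0.532, 4.66 and 7.79 CPM in month 0 livers, 13.2, 18.3 and 26.9 CPM in month 2 CCl4 livers and 16.7, 22.1 and 44.9 CPM in month 2 oil livers. The levels were 10.2, 22.7 and 32.9 CPM in month 6 CCl4 livers, then 6.496, 12.8 and 20.1 CPM in month 12 CCl4 livers, against 11.2, 19.96 and 29.8 CPM in month 12 oil livers. Every month 2 and month 12 oil liver had more Nr1d1 than every month 0 liver, while the oil livers of months 2 and 12 overlapped. Nr1d2 (chr14:18204054-18239127, minus strand) was 14.2, 42.6 and 80.1 CPM in month 0 livers, 90.2, 149 and 185 CPM in month 2 CCl4 livers and 122, 136 and 155 CPM in month 2 oil livers. It was 46.0, 121 and 167 CPM in month 6 CCl4 livers, then 41.6, 59.6 and 101 CPM in month 12 CCl4 livers, against 58.9, 80.8 and 135 CPM in month 12 oil livers. Nr1d2 therefore stood with Dbp, except that it was lower in month 12 CCl4 livers than in month 12 oil livers by median while Dbp was higher.

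**Figure D2:**
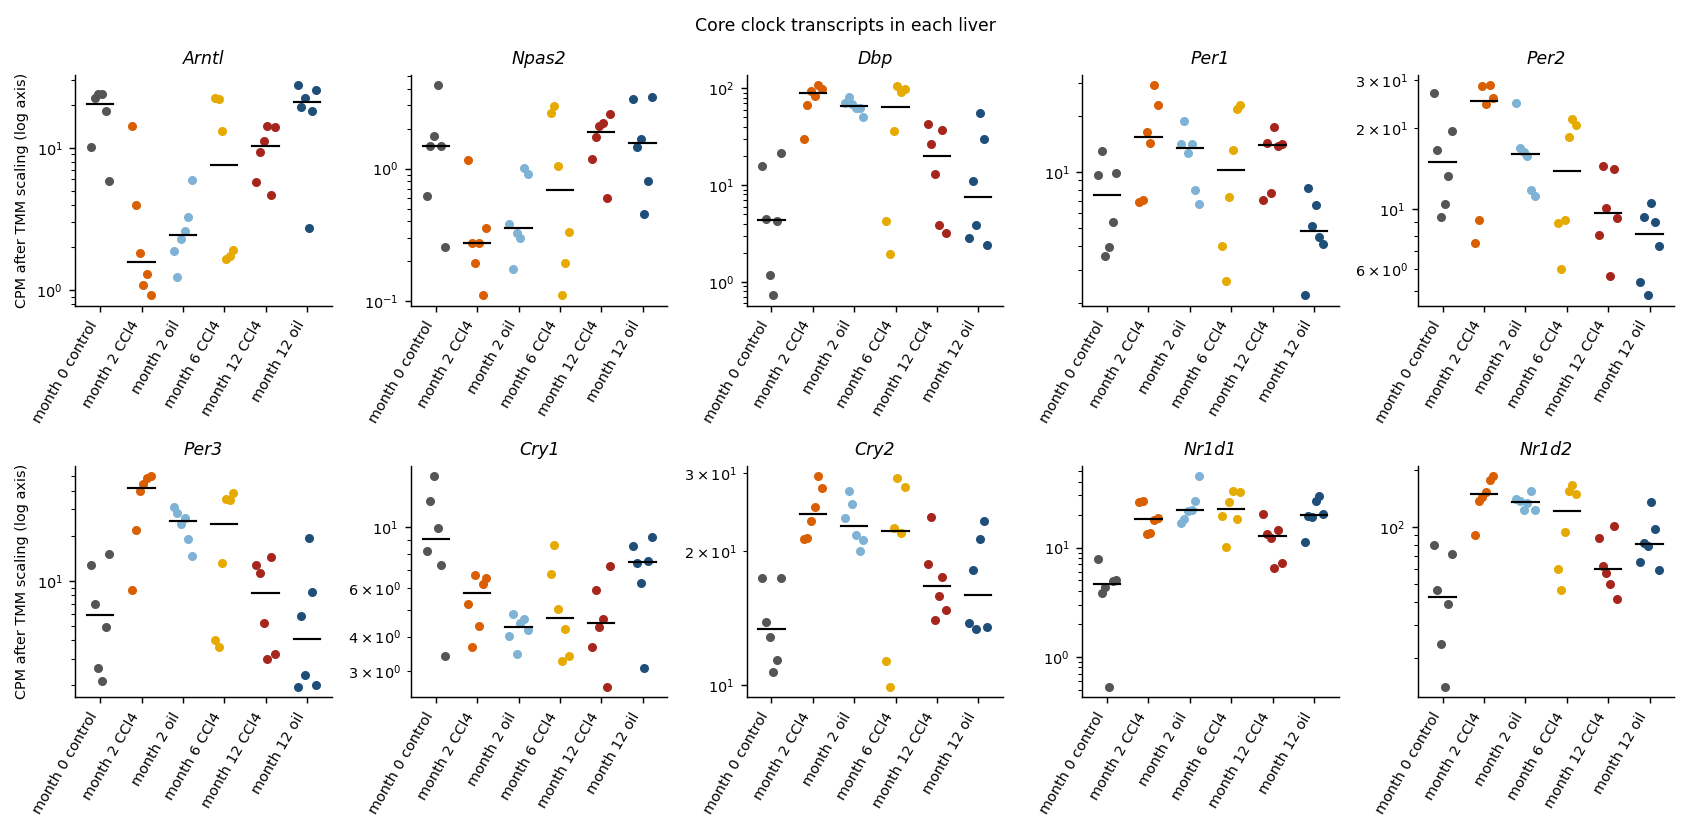
Level of each of the 10 clock transcripts in CPM after TMM scaling (vertical log axes, each with its own range) in each liver of the 6 groups (horizontal axis), with 1 point per mouse and a bar at the group median. Arntl and Npas2 are low and Dbp and Per3 high by median in both month 2 groups, and the month 6 CCl4 livers spread over most of the range.

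Mice of the same group varied more in these transcripts than in most genes. The within-group SD of log2(CPM + 1), pooled over the 6 groups, was 1.48 for Dbp, 1.02 for Arntl and 1.01 for Per3, against a median of 0.20 over the 12935 genes that averaged 1 CPM or more. Only 0.433% of those genes had a larger within-group SD than Dbp, 0.990% than Arntl and 1.03% than Per3. The SD was 0.72 for Per1 and 0.58 or 0.59 for Per2, Npas2, Nr1d1 and Nr1d2, where 2.44% to 4.01% of genes were larger. Because Npas2 averaged only 1.23 CPM, the added 1 narrows its SD. Its standard error for CCl4 against oil at month 12 was 0.62, as was that of Arntl. Cry1 at 0.44 and Cry2 at 0.35 were the steadiest members, with 7.91% and 14.1% of genes above them. This spread among mice of 1 group limits every comparison of the members: the median standard error of their fold changes at month 12 was 0.39 on the log2 scale, against 0.15 over all tested genes.

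The phase relations were examined within groups, on the deviation of each mouse from the mean of its group, so that differences between groups do not enter. Over the 36 mice Arntl was lower in the mice with more Dbp, with Pearson's r of -0.84 and Spearman's rho of -0.86 (permutation within groups, two-sided, p = 1e-05, the smallest the 100000 permutations can give, and adjusted p = 2.37e-05 over 45 pairs of members). The correlation of Arntl with Per2 was r = -0.80 and rho = -0.81 by the same permutation test (adjusted p = 2.37e-05). Both held without the 2 mice farthest from the median of Arntl, at r = -0.85 for Dbp and r = -0.79 for Per2. Nr1d1 was the exception: its correlation with Arntl was r = -0.25 and rho = -0.26, which did not pass the permutation test (adjusted p = 0.171). The points of each pair share their libraries and scaling.

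Within single groups of 6 mice, 18 relations of Arntl with Dbp, Nr1d1 and Per2 were tested by exact permutation. The r of Arntl with Dbp was between -0.82 and -0.99 in all 6 groups, although in month 2 CCl4 livers it was 0.09 without the 2 mice farthest from the median and so rested on those mice. The r of Arntl with Per2 lay between -0.49 and -0.97, and in month 2 CCl4 livers it also rested on the 2 farthest mice, being 0.73 without them. For Nr1d1 the sign was not shared between groups. In month 2 oil livers Nr1d1 was higher in the mice with more Arntl, with r = 0.95 (exact permutation p = 0.00417, adjusted p = 0.0188 over the 18 relations) and r = 0.96 without the 2 farthest mice. In month 12 CCl4 livers r was -0.85 (exact permutation p = 0.0486, adjusted p = 0.0875), and it was -0.52 at month 0, -0.62 in month 6 CCl4 livers and -0.55 in month 12 oil livers. In month 2 CCl4 livers it was 0.72, and -0.58 without the 2 farthest mice. The difference of these correlations between groups was not tested.

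**Figure D3:**
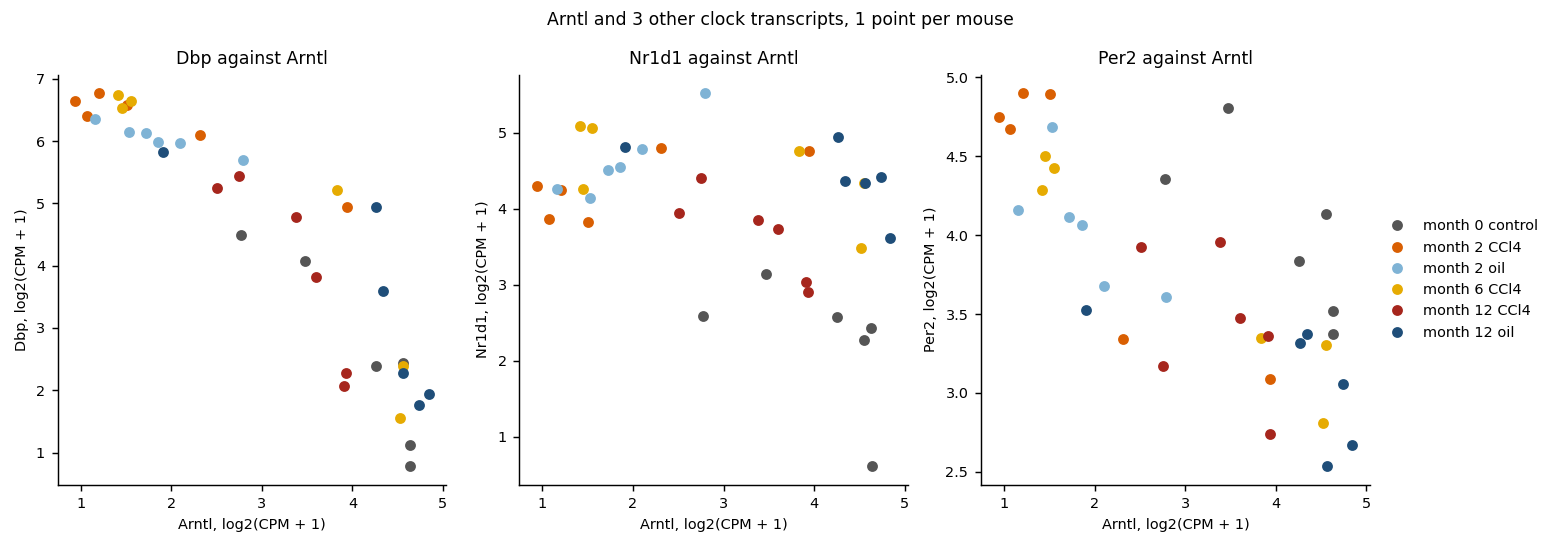
Dbp, Nr1d1 and Per2 (vertical axes) against Arntl (horizontal axis), all as log2(CPM + 1), with 1 point per mouse coloured by group. Dbp is lower where Arntl is higher in all 6 groups, though in month 2 CCl4 livers this rests on the 2 mice farthest from the Arntl median. Livers of different groups with like Arntl can differ in Dbp. For Nr1d1, 5 of the 6 month 0 livers lie below every liver of the other groups.

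All 45 pairs of members were compared in the same way, and 24 were positive and 21 negative. After adjustment over the 45 pairs, 40 passed the permutation test. Arntl, Npas2 and Cry1 correlated positively with each other, with r from 0.63 to 0.85, and negatively with each of the other members. Dbp, Per3, Nr1d2 and Cry2 formed the tightest block, led by Dbp with Per3 at r = 0.96 (adjusted permutation p = 2.37e-05), Dbp with Nr1d2 at 0.91 and Per3 with Nr1d2 at 0.90. The 5 pairs that did not pass were Nr1d1 with Arntl, Per1 and Per2, and Cry1 with Per1 and Per2. Nr1d1 correlated with Dbp at r = 0.60 and with Nr1d2 at r = 0.63, and with the period genes at 0.45 for Per3 (adjusted permutation p = 0.0146), 0.11 for Per1 and 0.18 for Per2. The differences between these correlations were not tested.

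**Figure D4:**
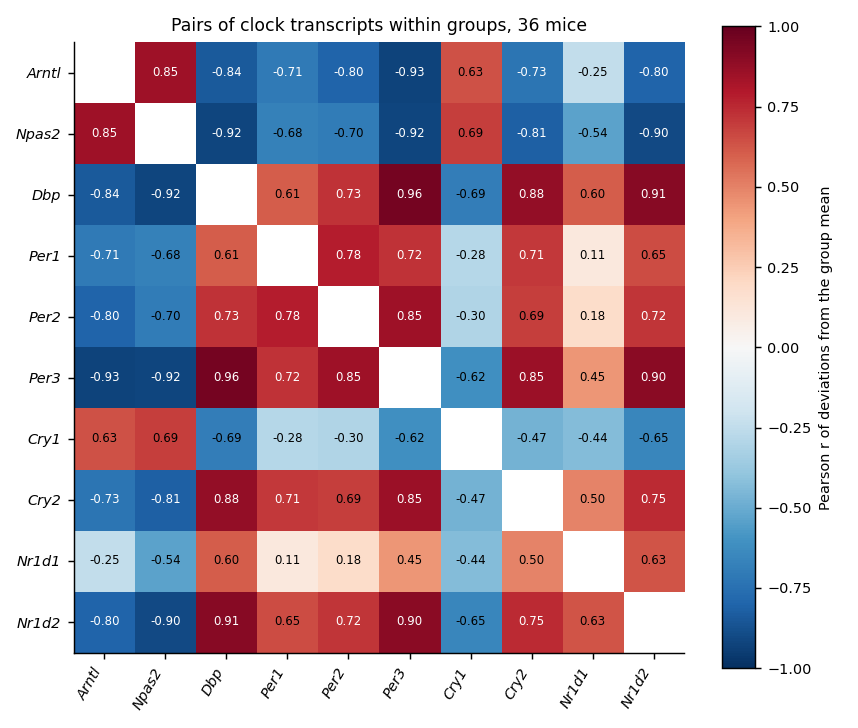
Pearson's r between pairs of the 10 clock transcripts (rows and columns), computed over 36 mice on deviations of log2(CPM + 1) from the group mean, with colour from blue (-1) to red (1). Arntl, Npas2 and Cry1 are positive with each other and negative with the rest, and the row of Nr1d1 is the palest.

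Genes outside the 10 were ranked by the same within-group r over the 36 mice among 12356 genes that averaged 1 CPM or more, without predicted genes (Gm and Rik symbols) and mitochondrial genes, as a description. Those closest to Arntl were Leo1 (0.92), a subunit of the PAF1 transcription elongation complex, St5 (0.91), Ypel2 (0.89), Trim2 (0.89) and Clpx (0.89), a mitochondrial protease subunit. Those most opposed to Arntl were Wee1 (-0.93), a cell cycle kinase under clock control in mouse liver, the member Per3 (-0.93), Ciart (-0.90), which encodes a repressor of ARNTL with CLOCK, Usp2 (-0.90), a rhythmic deubiquitinase, and Tef (-0.89), a close relative of Dbp. Closest to Dbp were Per3 (0.96), Tef (0.94), Nr1d2 (0.91), Cry2 (0.88) and Jade1 (0.85). Among those most opposed to Dbp were Npas2 (-0.92), Cdkn1a (-0.90), which encodes the cell cycle inhibitor p21, Arntl (-0.84) and Pnrc1 (-0.84).

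The contrast of CCl4 with oil at month 2 asks what 2 months of treatment changed against vehicle of the same age. None of the 10 members passed edgeR's quasi-likelihood test at an adjusted p below 0.05, where 10.4% of all tested genes did. None had an unadjusted p below 0.05, where 3764 of 15338 tested genes did. DESeq2 and limma-voom also called 0. Arntl averaged 3.91 ± 5.23 CPM in CCl4 livers and 2.87 ± 1.65 CPM in oil livers (SD, n = 6 each), and Dbp averaged 80.3 ± 28.4 and 65.9 ± 10.1 CPM. The fold changes of the 10 members ran from -0.39 for Npas2 to 0.57 for Per3 on the log2 scale, 8 of them positive, and all groups overlapped. The high SD of Arntl came from 1 CCl4 liver at 14.3 CPM (replicate 1), without which the log2 fold change of Arntl was -0.65 in place of 0.44 and that of Npas2 -1.09 in place of -0.39. It was the liver with the most neutrophil and red blood cell transcripts of its group (summed marker levels of 201 and 5493 CPM against group medians of 24.3 and 1300 CPM); their part in its Arntl level was not tested.

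At month 6, CCl4 livers were set against the average of both oil groups on the log scale. No member was called in this comparison, against 11.4% of all genes. None had an unadjusted p below 0.05, where 3756 of 15338 tested genes did. DESeq2 and limma-voom also called 0. The log2 fold changes ran from -0.07 for Cry1 to 0.78 for Per3. The oil groups that make up this mean differ in Arntl by 2.75 on the log2 scale, so the mean describes no measured liver.

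At month 12, Per1 was higher in CCl4 livers than in oil livers. It had lowest, median and highest levels of 7.07, 13.9 and 17.4 CPM in CCl4 livers, against 2.19, 4.81 and 8.16 CPM in oil livers. The means were 12.4 ± 4.08 CPM in CCl4 livers and 5.12 ± 2.07 CPM in oil livers (SD, n = 6 each), a log2 fold change of 1.27 ± 0.44 (SE, edgeR adjusted p = 0.0158). The groups overlapped only between the lowest CCl4 livers and the highest oil liver. Of the other groups, month 0 livers averaged 7.56 CPM of Per1 and month 2 oil livers 12.4 CPM. Month 2 CCl4 livers averaged 16.1 CPM and month 6 CCl4 livers 11.9 CPM, so month 12 oil had the lowest mean. Per1 passed in all 23 alternatives run for it, with log2 fold changes from 0.84 to 1.80 and adjusted p from 0.000562 to 0.046. It was the only 1 of 10 members called, while 49.1% of all tested genes were. An unadjusted p below 0.05 was held by 3 members and by 8419 of 15338 tested genes.

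Nr1d1, Cry1 and Arntl had lower means in month 12 CCl4 livers but did not pass the test. Nr1d1 averaged 12.3 ± 5.02 CPM in CCl4 livers and 21.2 ± 6.54 CPM in oil livers, with a log2 fold change of -0.78 ± 0.34 and an edgeR adjusted p of 0.0541. Cry1 averaged 4.74 ± 1.63 and 7.0 ± 2.18 CPM, with -0.57 ± 0.28 and 0.0896. Arntl averaged 9.87 ± 4.06 CPM in CCl4 livers and 19.4 ± 8.91 CPM in oil livers, with -0.97 ± 0.62 and 0.193. All 3 overlapped between the groups. The other members had log2 fold changes from -0.37 for Nr1d2 to 0.42 for Per2. With library totals alone as scaling Nr1d2 had 0.20, where the median gene had 0.56. The oil liver with the lowest Arntl, at 2.75 CPM, also had the highest Dbp (55.8 CPM) and Per3 (19.4 CPM) of its group and the most transcripts of the pancreas, with 15464 CPM summed over 5 pancreatic markers against a group median of 2233 CPM; the part of this in its clock levels was not tested. Without that liver (replicate 4) Cry1 was called lower at -0.74 (adjusted p = 0.0228), as it was at -0.70 without month 12 CCl4 replicate 6. Nr1d1 was called lower at -0.96 without month 12 CCl4 replicate 1 and at -0.93 without month 12 oil replicate 1. Marker genes of bile duct cells summed to 213 to 1087 CPM in CCl4 livers, against 41.9 to 96.0 CPM in oil livers at month 12, and their part in the members' differences was not tested. Of the 5 markers Spp1 (3.24) and Epcam (1.85) were called higher, while Krt19 (-0.37), Krt7 (0.47) and Sox9 (0.63) did not pass. Of 5 hepatocyte markers, Cyp2e1 (-3.08), Serpina1c (-1.55) and Ttr (-0.57) were called lower, while Alb (0.24) and Apoa1 (-0.26) did not pass. Macrophages had 3 of 5 markers called higher, and endothelium had 3 higher and 1 lower of 5, where 49.1% of all tested genes were called. The part of these cells was not tested either.

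The interaction asks whether the CCl4 difference at month 12 departs from that at month 2. No member was called, against 21.3% of all genes. An unadjusted p below 0.05 was held by 1 member and by 5065 of 15338 tested genes. DESeq2 and limma-voom also called 0. The lowest adjusted p was that of Cry1, with -0.92 ± 0.39 on the log2 scale (edgeR adjusted p = 0.0936), which was called at -1.08 without month 12 oil replicate 4. Arntl had -1.41 ± 0.91 and an adjusted p of 0.291. The CCl4 difference of Per1 at month 12 is therefore not shown to depart from that at month 2. Its interaction was 0.89 ± 0.60, with an edgeR adjusted p of 0.317.

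Larger differences lay between groups that received no CCl4. Month 2 oil livers differed from month 0 livers in 7 of the 10 members, 5 of them higher and 2 lower, against 31.3% of all tested genes. Arntl averaged 2.87 ± 1.65 CPM in month 2 oil livers and 17.4 ± 7.70 CPM in month 0 livers, a log2 fold change of -2.60 ± 0.67 (edgeR adjusted p = 0.00346). Dbp averaged 65.9 ± 10.1 and 7.98 ± 8.59 CPM, with 3.06 ± 0.84 and an adjusted p of 0.00585. Nr1d1 averaged 25.0 ± 10.3 and 4.41 ± 2.34 CPM, with 2.52 ± 0.37 and an adjusted p of 4.38e-06. Dbp, Nr1d1, Nr1d2 and Cry2 did not overlap between these groups, and Arntl did so only between its highest month 2 liver and its lowest month 0 liver. The share of all tested genes without overlap was not computed, so nothing is read from how many members did not overlap. Cry1 fell by 1.14 on the log2 scale, Per3 rose by 1.69, Nr1d2 by 1.56 and Cry2 by 0.74. Per2 had a log2 fold change of 0.01 ± 0.33, Per1 of 0.71 ± 0.43 and Npas2 of -1.67 ± 0.68 (adjusted p = 0.0579), none of which passed. The call of Per3 was lost without month 2 oil replicate 1 (1.60) or month 0 replicate 3 (1.5), 4 (1.48) or 5 (1.58), and Npas2 was called without month 2 oil replicate 5 (-1.96) or month 0 replicate 1 (-1.85) or 6 (-1.91). Markers of other cells differed in the same comparison. Neutrophil markers summed to 7.35 to 14.8 CPM in month 2 oil livers, against 41.0 to 108 CPM in month 0 livers, with 3 of the 4 tested called lower (S100a8 at -3.13, S100a9 at -3.13 and Retnlg at -2.71). Red blood cell markers summed to 778 to 1399 CPM against 151 to 794 CPM, with 4 of 5 called higher, and B and T cell markers to 2.46 to 13.99 CPM against 1.45 to 3.05 CPM, with 3 of 5 called higher. Their part in the members' differences was not tested. The overlapping genes Thra, at 0.39, and Sphk2, at 0.49, were also called higher. The part of reads from the shared exon bases in the differences of Nr1d1 and Dbp was not tested.

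Month 12 oil livers were then set against month 2 oil livers, which differ in months of oil and age. None of the 10 members was called, against 0.0717% of all tested genes. An unadjusted p below 0.05 was held by 9 of the 10 members and by 1753 of 15338 tested genes. DESeq2 called 1 member, Arntl, and limma-voom called 0. Arntl averaged 19.4 ± 8.91 CPM at month 12 and 2.87 ± 1.65 CPM at month 2, with 2.75 ± 0.67 on the log2 scale and an edgeR adjusted p of 0.0713, lowest among the members. Dbp had -1.91 ± 0.79, Per3 -1.85 ± 0.60 and Npas2 1.84 ± 0.67. The median absolute log2 fold change was 1.16 over the members and 0.13 over all tested genes. Per2 was the 1 member whose groups did not overlap, and the share of all tested genes without overlap was not computed.

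Along the course of CCl4, month 6 livers differed from month 2 livers in none of the members, against 0.502% of all genes. An unadjusted p below 0.05 was held by 2 members and by 1395 of 15338 tested genes. DESeq2 and limma-voom also called 0. Arntl had 1.43 ± 0.64 and Npas2 1.60 ± 0.69 on the log2 scale. Month 12 livers differed from month 6 livers in Nr1d1 alone, against 39.2% of all genes. Nr1d1 averaged 12.3 ± 5.02 CPM at month 12 and 23.2 ± 8.89 CPM at month 6, a log2 fold change of -0.91 ± 0.34 (edgeR adjusted p = 0.0304). Its groups overlapped, and the call was lost without month 12 CCl4 replicate 4 (-0.77) or 6 (-0.79) or month 6 CCl4 replicate 3 (-0.87), 4 (-0.79) or 6 (-0.79). It was also lost with library totals alone (edgeR adjusted p = 0.0863) and, when a term for the Arntl to Dbp balance was added (adjusted p = 0.0532), Per3 was the 1 member called instead (adjusted p = 0.0107). Per3 had -1.37 ± 0.58 (adjusted p = 0.0593), Nr1d2 -0.75 ± 0.31 (0.0578) and Dbp -1.42 ± 0.78 (0.151). Without month 12 CCl4 replicate 5 or month 6 CCl4 replicate 1 or 2 both Per3 (-1.60, -1.59 and -1.59) and Nr1d2 (-0.89, -0.87 and -0.90) were called, and without month 12 CCl4 replicate 1 Nr1d2 was (-0.84). The comparisons that share a group of livers, such as month 2 oil in 5 of them, are not independent of each other.

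The Arntl to Dbp balance of each mouse was then added to the model as a term for phase, which leaves 8 members to read. The balance is itself measured in these livers, so the hour of collection and any effect of treatment on the clock are taken out together and cannot be told apart. At month 12, 4 of the 8 then passed for CCl4 against oil, where 1 had without the term, and the share of all genes called was 50.7%. Per1 stayed higher in CCl4 livers at 1.10 ± 0.34 (edgeR adjusted p = 0.00791). Nr1d1 was lower at -0.95 ± 0.32 (adjusted p = 0.0134, with 0.0134 to 0.572 over its alternatives), and Nr1d2 was lower at -0.68 ± 0.15 (adjusted p = 0.000247, with 7.89e-05 to 0.595 over its alternatives). Npas2 was higher at 0.74 ± 0.29 (adjusted p = 0.0295, with 0.00332 to 0.995), the other sign from its -0.12 without the term. The standard errors of Npas2 and Nr1d2 were 0.62 and 0.31 without the term.

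For month 2 oil against month 0, the same term left 4 of 8 members called, where 5 of the 8 had been, and lowered the share of all genes called to 15.3%. The balance itself did not overlap between these groups. It ran from -5.20 to -2.90 in month 2 oil livers and from -1.71 to 3.85 in month 0 livers. Values with the term thus rest on a straight line drawn across balances not measured in both groups, which these livers cannot check. On that line Nr1d1 kept most of its difference, at 1.97 ± 0.39 (adjusted p = 0.000933). Cry1 (-0.24 ± 0.27), Cry2 (0.02 ± 0.14) and Nr1d2 (0.48 ± 0.17, adjusted p = 0.0596) no longer passed. Per2 was now lower in month 2 oil livers at -1.11 ± 0.27 (adjusted p = 0.00444), Per3 was lower at -0.67 ± 0.16, against 1.69 without the term, and Npas2 was higher at 1.28 ± 0.38. Nr1d1 passed in all 23 alternatives run for it in this comparison.

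**Figure D5:**
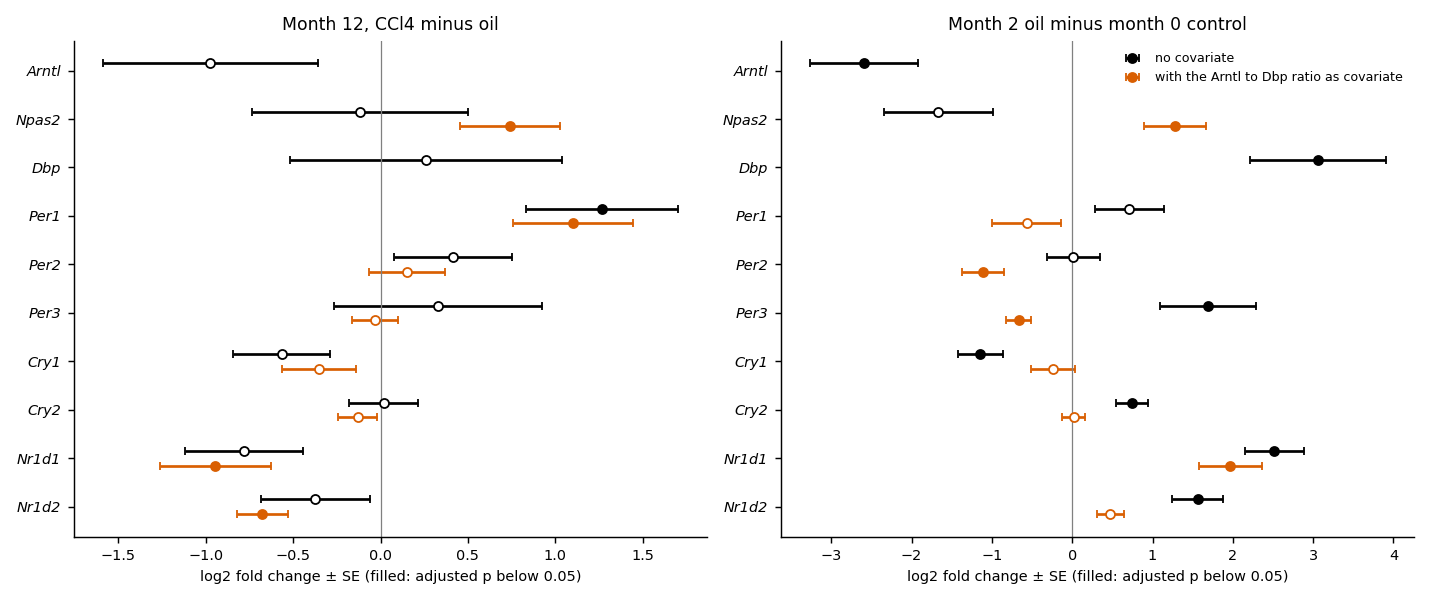
Log2 fold changes with standard errors (horizontal axes) of the clock transcripts (rows) for month 12 CCl4 minus oil (left) and month 2 oil minus month 0 control (right), without (black) and with (orange) the Arntl to Dbp ratio as a covariate, filled where the adjusted p was below 0.05. Per1 at month 12 and Nr1d1 at month 2 are filled in both fits, whereas Npas2 changes sign. On the right, the ratio did not overlap between the groups compared.

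A measure of phase that holds no member was taken from Clock, the partner of ARNTL, and Tef, as their difference in log2(CPM + 1), and was chosen after the data had been seen. Tef is among the genes closest to Dbp and most opposed to Arntl over the same mice, so members that vary with Dbp and Arntl had to show slopes on it, and the slopes are given as a description. The slope of each gene on this difference within groups passed for 9 of the 10 members, where 9.0% of all tested genes passed, a count from which nothing is read. The slope was positive for Npas2 (1.03 ± 0.08), Arntl (1.02 ± 0.08) and Cry1 (0.26 ± 0.07), in log2 units per log2 unit. It was negative for Dbp (-1.30 ± 0.12), Per3 (-0.99 ± 0.05), Per1 (-0.59 ± 0.09), Per2 (-0.49 ± 0.05), Nr1d2 (-0.47 ± 0.05) and Cry2 (-0.29 ± 0.03). Nr1d1 had -0.18 and an adjusted p of 0.245. On the Arntl to Dbp balance Nr1d1 had a slope of -0.11 ± 0.04 and an adjusted p of 0.115.

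Other genes of the clock and its surroundings were read from lists chosen with earlier results of these data known. Of 17 other clock components, 3 were higher and 4 lower in month 12 CCl4 livers against oil, where 49.1% of all tested genes were called, with a median log2 fold change of -0.18 over the list and 0.01 over all tested genes. Among the members of smallest p were Csnk1e (1.35, edgeR adjusted p = 9.5e-09), a kinase that marks PER proteins for degradation, and Fbxl21 (-0.98), part of a ligase that acts on CRY proteins. Csnk1e had lowest, median and highest levels of 9.03, 9.68 and 19.3 CPM in month 12 CCl4 livers, against 3.78, 4.38 and 5.70 CPM in oil livers, without overlap. Clock itself was lower at -0.66 (adjusted p = 0.0062). At month 2 none of the 17 was called, against 10.4% of all genes. An unadjusted edgeR p below 0.05 was held there by 2 of them and by 3764 of 15338 tested genes. Between month 2 oil and month 0 the count was 4 higher and 2 lower, against 31.3% of all genes. Tef (1.44) was among the higher and Nfil3 (-1.59), a repressor that competes with DBP for its sites, among the lower.

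Of 16 genes known to cycle in mouse liver, 4 were higher and 3 lower in month 12 CCl4 livers against oil, against 49.1% of all tested genes called, with a median log2 fold change of 0.32. Elovl3, a fatty acid elongase with a daily rhythm and a strong dependence on growth hormone, fell by 6.35 on the log2 scale, with lowest, median and highest levels of 0.337, 4.70 and 9.68 CPM in CCl4 livers, against 203, 321 and 608 CPM in oil livers. Avpr1a, the liver vasopressin receptor, fell by 2.74 and Rgs16, a regulator of G protein signalling, rose by 3.67. Elovl3 and Avpr1a were also the 2 called lower at month 2, by 3.43 and 1.52. The slope of Elovl3 on the Clock to Tef difference, pooled within groups, was positive at 0.56 and that of Rgs16 negative at -0.999. Both thus also varied with that difference among mice of the same group.

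Lists of genes that follow meals, temperature or corticosterone, each of which has a daily rhythm, gave the following counts for month 12 CCl4 against oil, to be read against the 49.1% of all tested genes called there. Of 14 fasting and feeding genes 5 were higher and 2 lower, led by Fgf21 (3.88), a hormone released by the liver under nutrient stress, Igfbp1 (3.50) and Pnpla3 (1.95). Of 9 temperature and heat shock genes 1 was higher, Rbm3 (0.81), which is induced by cold, and 1 lower, Hsph1 (-0.96), while Hsp90aa1 at -0.62 did not pass. Of 10 glucocorticoid response genes, Per1 among them, 3 were higher and 2 lower. They were led by Fkbp5 (1.87), Klf9 (-0.53, but 0.019 with library totals alone) and Tat (-0.92). Whether glucocorticoids had a part in the higher Per1 of month 12 CCl4 livers was not tested. With the Arntl to Dbp term these counts were 5 and 1 for feeding, 1 and 1 for temperature and 3 and 2 for glucocorticoid genes, where 50.7% of all genes were called.

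Between month 2 oil and month 0, none of the 9 temperature and heat shock genes was higher and 6 were lower, where 31.3% of all tested genes were called, the chaperone genes Hspa1b (-2.05) and Hspa5 (-1.58) among them, with a median log2 fold change of -1.34 over the list against -0.0043 over all tested genes. Hspa1b had lowest, median and highest levels of 6.99, 10.2 and 16.5 CPM in month 2 oil livers, against 4.28, 13.5 and 160 CPM in month 0 livers, so its groups overlapped and the medians lay much closer together than the means of 10.6 and 44.2 CPM. Hspa5 had 580, 821 and 1206 CPM in month 2 oil livers, against 2163, 2499 and 3000.0 CPM in month 0 livers, without overlap. With the Arntl to Dbp term 1 of the 9 was called lower, where 15.3% of all genes were called. The same comparison gave 5 higher and 2 lower among the 16 rhythmic genes, 2 and 2 among the 14 feeding genes and 2 and 3 among the 10 glucocorticoid response genes, to be read against the same 31.3%. Rgs16 was higher by 5.59 and the metallothionein genes Mt1 and Mt2, which bind metals and answer to corticosterone, were lower by 4.07 and 5.06 on the log2 scale.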

How the data were processed

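Whole-liver RNA of 36 mice (6 groups of 6, grouped by sample title) was sequenced after ribosomal RNA removal with a stranded kit, per the labels' protocols. The authors deposited raw counts, whole numbers per gene symbol and library, mapped with Biojupies to mm10, and used edgeR 3.30.3 and limma 3.44.3, per the submitters' processing notes. The sources used here name neither the gene annotation nor whether counting used strand. The members, gene lists, tests and alternatives were chosen with earlier results of these data known.

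From the counts, genes were filtered with filterByExpr (15338 kept of 32544), scaled by TMM (factors 0.757 to 1.33) and tested in 1 fit of the 36 libraries with the quasi-likelihood test of edgeR 4.0.16 in R 4.3.3, with Benjamini-Hochberg adjustment over all tested genes of a comparison and a threshold of 0.05. The fit was tested on simulated data. Log2 values used a pseudocount of 1. Alternatives were other scalings and filters, a replicate block, DESeq2 1.42.0, limma-voom (limma 3.58.1), only the groups compared and each library left out. Others were leaving out 4 libraries together, other pseudocounts (0.1 and 5) and 2 covariates for phase. The 4 libraries, chosen for RNA from other organs or blood, were month 2 CCl4 replicates 1 and 6 and replicate 2 of both oil groups of months 2 and 12. The livers with the most pancreatic marker transcripts stayed in: month 2 CCl4 replicate 5 (16431 CPM) and month 12 oil replicate 4 (15464 CPM). All members were named, the 3 genes of smallest p in CCl4 against oil per list, and the 5 genes nearest to and farthest from Arntl and Dbp, apart from genes not reported here; Clock, Tef, Nfil3, Hspa1b, Hspa5, Mt1 and Mt2 were named after their values were seen. Gene positions come from GENCODE vM21.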

Additional observations from a re-analysis of the deposited data

Results flagged for a closer look

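Of 60 sets of 6 livers (10 members in 6 groups), 5 had a highest liver far from the others in CPM. The gap to the next liver was over 0.625 of the whole range. That limit flags about 1 in 20 sets only where values are independent and normal. The members vary together and CPM are skewed, so no chance rate is given, and on log2(CPM + 1) the flags can differ. In month 2 CCl4 livers, replicate 1 had 14.3 CPM of Arntl, next to 3.96 CPM in the following liver, and 1.17 CPM of Npas2, next to 0.36 CPM. This liver also had the most neutrophil and red blood cell transcripts of its group, whose part was not tested. In month 12 oil livers, replicate 4 had 19.4 CPM of Per3, next to 8.42 CPM, and the most pancreatic transcripts of its group, whose part was not tested. In month 2 oil livers, replicate 6 had 44.9 CPM of Nr1d1, next to 26.5 CPM. In month 0 livers, replicate 4 had 4.25 CPM of Npas2, next to 1.75 CPM.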

How the results depend on the processing

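No alternative changed the side of the test for the 3 within-group correlations of Arntl (with Dbp, Nr1d1 and Per2), and no member was called in any of them for month 2 CCl4 against oil or for month 6 against month 2 CCl4. For month 12 CCl4 against oil, 1 member was called, and 2 with RLE size factors, DESeq2, limma-voom or only the groups compared (Per1 and Nr1d1), 3 with library totals alone (Per1, Per2 and Cry2), 4 of 8 with the Arntl to Dbp term and 4 with the Clock to Tef term; without single livers the count was 1 to 2. For month 6 CCl4 against oil the count of 0 became 3 with library totals alone (Per1, Per2 and Per3) and 1 with the Arntl to Dbp term (Per3). For the interaction 0 became 2 with the Arntl to Dbp term, 1 with the Clock to Tef term (Nr1d2), 1 with only the groups compared (Cry1), and 0 to 1 without single livers. For month 12 against month 2 oil 0 became 1 with library totals alone, 1 with DESeq2 and 2 with only the groups compared. For month 2 oil against month 0, 7 became 3 with the Clock to Tef term, and 6 to 8 without single livers. Npas2, not called in the main fit, was called in 6 of its 23 alternatives there, the Arntl to Dbp term and other settings than single livers left out among them. For month 12 against month 6 CCl4, 1 became 0 with library totals alone, 5 with the Clock to Tef term and 3 with DESeq2, and 0 to 3 without single livers; with the Arntl to Dbp term the 1 called was Per3 in place of Nr1d1. The cause of these changes was not tested, except that library totals alone shift the median gene, by 0.54 on the log2 scale at month 12 and 0.32 at month 6; relative to that median Cry2 had 0.02, Per2 0.42 and Per1 1.24 at month 12. At month 12 library totals alone gave 10331 genes higher and 592 lower (71.2%), where TMM gave 3975 and 3561.

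Values that changed sign and passed the test with or without the alternative were Klf9 (0.019) at month 12 with library totals alone, and Npas2 at month 12 with the Arntl to Dbp term (0.74) and the Clock to Tef term (1.01). For month 2 oil against month 0 they were Npas2 (1.28), Per2 (-1.11) and Per3 (-0.67) with the Arntl to Dbp term. With the Clock to Tef term they were Per2 (-0.94) and Per3 (-0.031). Neither ratio overlapped between those groups, so these values rest on a straight line drawn across the gap between them. Including members that passed in neither fit, 3 of 8 at month 12 and 4 of 8 for month 2 oil against month 0 changed sign with the Arntl to Dbp term, 6 and 4 of 10 with the Clock to Tef term, and 2 and 0 of 10 with library totals alone.

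The count over all genes moved by more than 1.5 times in these cases. For month 12 against month 2 oil, 11 genes became 183 with library totals alone, 26 with a filter of 1 CPM in 6 libraries, 19 with the block, 7 and 3 with the Arntl to Dbp and Clock to Tef terms, 139 with DESeq2, 17 with limma-voom, 190 with only the groups compared and 6 without 4 libraries. For month 6 against month 2 CCl4, 77 became 50 with the block, 14 with either term, 119 with DESeq2, 38 with limma-voom, 34 with only the groups compared and 21 without 4 libraries. Elsewhere month 2 CCl4 went to 3339 with library totals alone and 884 without 4 libraries in place of 1591, month 6 CCl4 to 9061 with library totals alone and 1115 against month 12 oil alone in place of 1746, the interaction to 5553 with library totals alone in place of 3263, and month 2 oil against month 0 to 2345 and 3004 with the Arntl to Dbp and Clock to Tef terms in place of 4797.

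Mice with the same replicate number did not deviate together: of 90 pairs 22 had a correlation over 0.1, with a median of -0.03, and 5 of 36 libraries matched best with their own number. With the replicate block 1, 7 and 1 members were called for month 12 CCl4 against oil, month 2 oil against month 0 and month 12 against month 6 CCl4, as without it, and 0 in the other comparisons. Npas2 had the fewest counts of the members, as few as 3 in a liver, and the part of depth in its spread was not tested. The hour of collection is not in the labels, and no group was sampled around the clock. With 6 mice a group, pooled within-group SDs of 1.48 for Dbp, 1.02 for Arntl and 1.01 for Per3 on the log2 scale leave wide intervals.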
